A study of Mus musculus with 15 samples.

Results

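Far-lying fragments were taken here as HindIII fragments that the deposited promoter contact table lists with a promoter but that sit more than 1 Mb from the centre of that promoter's contacts. Each row of the table, called a listing here, pairs a promoter, named by its gene, with a fragment. Promoters with 5 or more listings, all on 1 chromosome, were kept as well covered, and the centre was the median midpoint of a promoter's listed fragments. By this rule 7111 listings lay far, out of 32362 listings of 2886 well-covered promoters and 36353 listings of 4429 promoters in all. Members were thus chosen by the positions of the listed fragments, and their distances are given as a description only. Positions of the baited promoter fragments were not used here, and the distances run from the centre of the contacts and not from the promoter itself.

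The series is a promoter-capture Hi-C study of memory encoding, consolidation and recall in sorted hippocampal neuronal nuclei of mice. All 15 libraries came from the strain labelled ArcCreERT2 x R26R-STOP-floxed-eYFP with the genotype label +/+. In this line the Arc promoter drives a Cre recombinase that works while 4-hydroxytamoxifen is present, and recombined cells make a yellow fluorescent protein. The labels give a dose of 4-hydroxytamoxifen 1 h before contextual fear conditioning, housing in the dark around it, and 3 collection schemes: 1.5 to 2 h after the task, or 5 days later without or with a second exposure to tone and context. The groups are called Basal (3 libraries), Early (4), Late (4) and Reactivated (4), as in the titles. Which group was collected at which interval, how Basal mice were treated and the age of the mice are not stated in the labels, whose collection days conflict with the protocol. Hippocampi of 10 to 12 mice were combined for each condition to give 10000 nuclei, which were sorted with antibodies against NeuN and GFP, and the capture used 10000 RNA baits for about 5000 promoters. The design calls the replicates biological. The neuronal identity of the nuclei cannot be checked against marker genes in a table of contacts.

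Promoter-capture Hi-C joins DNA ends that were close together in the fixed nucleus and then enriches the joined pieces that carry a chosen promoter. Contacts of promoters with enhancers usually stay within the same topologically associating domain, a stretch of chromosome in which loci meet each other more often than they meet loci outside. Random collisions of the chromatin fibre become rarer with distance, and contacts over very long distances are known mostly between regions of like activity, such as active promoters or Polycomb-bound genes. Each value in the table is the authors' interaction score, a whole number from 2 to 13683, and a cell without a score is treated as 0. Libraries differed widely in size, with 30 to 10652 listings of well-covered promoters per library and a sum of scores between 3114 and 9590409. Reactivated libraries 1 and 2 were the smallest, with 30 and 351 listings. In 6 pairs of the same group, the smaller library shared 40% or more of its fragments with the other, and joining such libraries left 9 library sets. Reactivated 3 and 4 form 1 of these sets and shared 90.9% of the far-lying listings of the smaller library, so libraries of a set are not independent. Values over sets are given beside the test of recurrence. For single listings only counts are given over sets. The difference, SE and limma p of a named listing treat the 15 libraries as separate.

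Promoter sequences are shown for 4 genes of the far-lying contacts that recurred most, namely the promoter of the far-lying listing in the most libraries (Cldn12), the next (Pvrl3) with the gene beside its fragment (Cd47), and an inducible transcription factor among the first 10 (Junb). They are RefSeq windows of 300 bases in assembly GRCm38.p6, read on the strand of the gene. Their positions are on another build than the fragments and were not compared with them. Cldn12 is at chr5:5514927-5515226 on the minus strand, Pvrl3 (current symbol Nectin3) at chr16:46496918-46497217 on the minus strand, Cd47 at chr16:49855404-49855703 on the plus strand and Junb at chr8:84978699-84978998 on the minus strand. Capitals mark a HindIII site (AAGCTT, its own reverse complement), the sequence at which the chromatin was cut.
Cldn12: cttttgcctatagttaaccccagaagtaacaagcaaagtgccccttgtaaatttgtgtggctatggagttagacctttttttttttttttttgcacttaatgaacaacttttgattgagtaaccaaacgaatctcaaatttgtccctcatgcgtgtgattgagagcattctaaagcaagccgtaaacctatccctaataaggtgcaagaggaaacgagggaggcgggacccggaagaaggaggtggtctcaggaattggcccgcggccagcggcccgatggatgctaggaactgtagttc
Pvrl3: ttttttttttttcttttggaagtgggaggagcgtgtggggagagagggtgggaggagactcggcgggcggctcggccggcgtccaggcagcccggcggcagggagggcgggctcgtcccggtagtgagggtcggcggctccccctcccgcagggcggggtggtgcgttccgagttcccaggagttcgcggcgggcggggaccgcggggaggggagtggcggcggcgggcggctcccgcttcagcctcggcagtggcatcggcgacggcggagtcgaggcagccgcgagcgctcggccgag
Cd47: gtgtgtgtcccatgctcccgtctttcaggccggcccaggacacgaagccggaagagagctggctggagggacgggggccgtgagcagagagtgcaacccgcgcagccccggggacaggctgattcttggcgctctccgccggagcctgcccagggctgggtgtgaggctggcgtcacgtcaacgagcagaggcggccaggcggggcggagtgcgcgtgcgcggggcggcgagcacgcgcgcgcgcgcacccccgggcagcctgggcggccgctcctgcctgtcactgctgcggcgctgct
Junb: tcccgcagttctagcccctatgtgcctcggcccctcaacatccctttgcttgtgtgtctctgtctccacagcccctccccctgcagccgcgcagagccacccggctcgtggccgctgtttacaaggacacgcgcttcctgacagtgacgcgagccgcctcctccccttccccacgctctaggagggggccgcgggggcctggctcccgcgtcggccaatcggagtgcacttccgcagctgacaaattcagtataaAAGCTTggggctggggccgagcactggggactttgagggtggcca
Only the Junb window of these 4 holds AAGCTT, at position 256 from its first base. Over all 27025 gene windows of this length, 7.36% hold the site. It is in 4.82% of 1784 windows of promoters with a far-lying listing and in 6.38% of 392 windows of well-covered promoters with none. Of the well-covered promoters, 2177 of 2886 matched a window.

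Most well-covered promoters had at least 1 far-lying listing, but usually few. A far-lying listing was present for 2356 promoters (81.6%), with a median of 2 per promoter, and 665 promoters had exactly 1. Only 33 promoters had 10 or more. Crebzf, which encodes a basic leucine zipper transcription factor, had 160 far-lying listings of 163, and 145 of them were scored in Reactivated, 136 of these in library 2. The next were Klf2, a Krueppel-like transcription factor, with 18 of 18, Trove2, which encodes the Ro60 RNA-binding protein, with 17 of 39, and Frs2, an adaptor of fibroblast growth factor receptors, with 15 of 32. Slc25a31, a mitochondrial ADP/ATP carrier, had 15 of 23. Acer2, a ceramidase, and Gcc2, a golgin, had 14 of 34 and 14 of 39.

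For 159 promoters more listings lay far than near, and for 32 of them all did, so that no listed fragment sits near the centre. Klf2 is the largest of these, and Avl9 had 14 of 14. Adamtsl2, Asb17, Numbl and Sdcbp2 each had 10 of 10. The 18 Klf2 fragments were spread over chromosome 8 between positions 28142723 and 106880771. For the 159 promoters the median lies away from most of the listed fragments, and how their 1120 far-lying listings are arranged was not tested. The other 5991 belong to promoters with at least as many listings near as far.

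The far-lying fragments spanned whole chromosomes. Distances from the centre ran from 1.00 to 190 Mb, with a median of 17.8 Mb and quartiles of 3.16 and 50.01 Mb, against a median of 96.0 kb for the near listings. Of the far-lying listings, 48.7% were on the side of higher coordinates. Fragment lengths were alike, with medians of 2981 bp far and 2921 bp near. The nearest members were single-library fragments of Flt1, a receptor of vascular endothelial growth factor, Cbx8, a Polycomb subunit, and Klf7, at 1.00 Mb each, and the nearest non-members were those of Gfra2, Adamts1 and Fam199x at 0.999, 0.999 and 0.998 Mb. By chromosome, the share of listings that lay far was highest on X (33.6%) and lowest on 17 (13.0%). On chromosome 7 it was 32.5% with Crebzf and 23.8% without it, and on chromosome 2 it was 26.1%.

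The 10 most distant fragments, 1 per promoter, were on chromosomes 1 and 2 and mostly in few libraries. Diexf had the most distant one, at 190 Mb, with a single score of 8 in Late 2. Prox1, a homeobox factor of dentate granule cells, had a fragment at chr1:8847324-8848354, 183 Mb from its centre, with scores of 819 and 731 in Reactivated 3 and 4 and none elsewhere. These are the 2 libraries that share most of their fragments. Atp6v1h, a subunit of the vacuolar proton pump, had one at 181 Mb with scores of 6 in Basal 3, 283 in Early 3 and 151 in Early 4. Sgk3, a serum- and glucocorticoid-related kinase, had one at 170 Mb with 30 in Early 1 and 136 in both Reactivated 3 and 4, and this fragment is also listed with Hnrnpu. The fragments of Vcpip1, Sulf1, Sntg1, Usp21 and Plxna2, the last a semaphorin receptor, were each scored in 1 library, and that of Atp5e in 2.

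Far-lying listings recurred less often than near ones. A single library scored 64.6% of them, against 23.7% of the 25251 listings within 1 Mb, and a single group scored 80.0% against 63.2%. Scores in 6 or more libraries were found for 60 far-lying listings (0.844%) and 1216 near ones (4.82%), and the most libraries for any listing were 12 far and 14 near. The share in a single library was 17.8% within 0.1 Mb of the centre, 25.1% from 0.1 to 0.5 Mb, and 51.6% from 0.5 to 1 Mb. Beyond 1 Mb it stayed between 60.2% and 68.2% in 5 distance classes out to over 50 Mb, with no further climb. Far-lying fragments also stood alone. Another listing of the same promoter lay within 100 kb for 6.61% of them, against 82.3% of the near listings, a contrast that the rule itself favours.

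**Figure D1:**
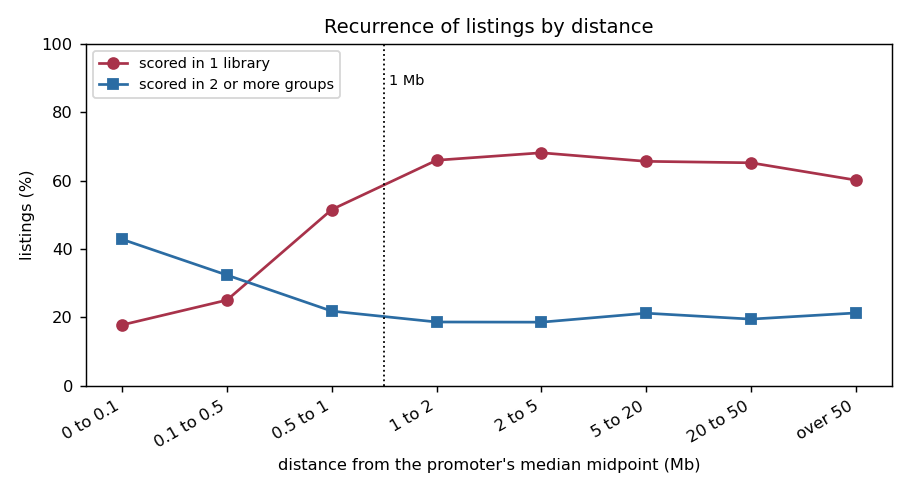
Percent of listings scored in 1 library (circles) and in 2 or more groups (squares) by distance of the fragment from its promoter's median midpoint, in 8 classes in Mb. The dotted line marks 1 Mb: the share in 1 library is 17.8% in the nearest class and between 60.2% and 68.2% in the 5 classes beyond the line.

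Recurrence was tested within each library, as the percent of its far-lying listings that at least 1 library of another group also scored, minus the same percent for its near listings. The mean was 43.5% ± 14.6 far and 57.2% ± 11.1 near (SD, n = 15 libraries), a difference of -13.7 points ± 15.0 (SD). It was negative in 13 of 15 libraries, and the two-sided exact sign-flip permutation p over the 15 libraries was 0.00299. The gap was widest in Early 2 (23.7% far, 62.7% near), Basal 3 (45.4% and 78.9%), Early 1 (25.8% and 58.2%) and Early 4 (28.5% and 59.6%). It was small in Late 3 (58.5% and 59.6%) and Reactivated 3 (50.6% and 51.5%), and of the other sign in Late 4 (65.3% and 59.7%) and Reactivated 1, where it rests on 12 far-lying listings. Libraries of a set share fragments, so the p over libraries is too small. Over the 9 library sets the difference was -17.3 points (exact sign-flip permutation p = 0.00781). A listing scored in several groups counts as recurrent in the libraries of each. The values of sets in different groups therefore depend on each other too, which neither p takes into account.

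**Figure D2:**
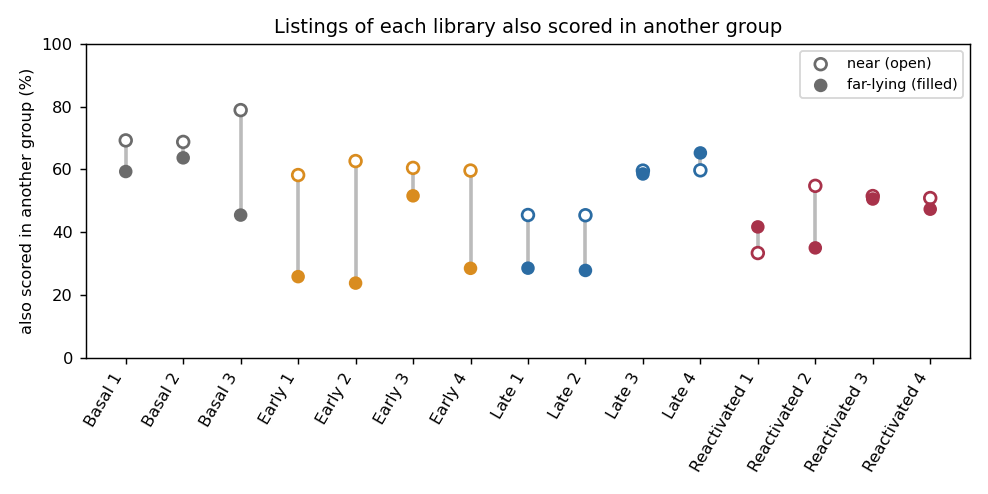
For each of the 15 libraries, the percent of its far-lying (filled) and near (open) listings of well-covered promoters that at least 1 library of another group also scored, coloured by group. The far value is the lower of the pair in 13 libraries, with the widest gap in Early 2 (23.7% against 62.7%).

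Whether a far-lying fragment recurred went with whether other promoters were listed with it. Most far-lying listings, 6080 (85.5%), were on fragments listed with a single promoter, and of these 72.9% were in 1 library and 11.4% in 2 or more groups. For 674 listings (9.48%), the same fragment was also listed near another promoter. Of these 10.4% were in 1 library and 74.8% in 2 or more groups. The remaining 357 were on fragments of several promoters and near none of them, with 25.8% in 1 library. Of the 60 far-lying listings in 6 or more libraries, 51 were on fragments near another promoter, 3 on other shared fragments and 6 on fragments of 1 promoter. Near listings differed in the same direction, with 26.9% in 1 library on fragments of 1 promoter and 5.97% on shared fragments.

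All 885 far-lying fragments with several promoters had identical scores under each of their promoters, and the table does not tell to which promoter a score belongs. The test of recurrence was therefore repeated on fragments of 1 promoter. There the far-lying percent was 26.9% ± 13.7 and the near one 47.1% ± 13.2 (SD, n = 15), lower far than near in 15 of 15 libraries. The difference was -20.2 points, with an exact sign-flip permutation p of 6.1e-05 over libraries, the smallest that 15 can give, although libraries of a set share fragments. Over the 9 library sets, an alternative chosen after seeing the data, it was -23.2 points (exact sign-flip permutation p = 0.00391, the smallest that 9 sets can give). The dependence between groups holds here as well.

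Among listings on fragments of 1 promoter, only 6 far-lying ones were scored in 6 or more libraries, and all 6 are described here, chosen after their values were seen. Cldn12, which encodes the tight junction protein claudin-12, was first with 12 libraries (chr5:5506587-5510978, build mm9, as for all fragments here). Its scores were 4040, 2390 and 87 in Basal 1 to 3, 976, 6624, 1928 and 1118 in Early 1 to 4, 4168, 5049, 3448 and 2597 in Late 1 to 4, and 1000 in Reactivated 2 with none in Reactivated 1, 3 and 4. Late libraries were the most even, and the 2 large Reactivated libraries lacked the fragment. It lay 3.44 Mb from the median of Cldn12, but 13 of the 15 Cldn12 listings lay far, so the median lies away from most of them. The bait position was not used here, and whether this fragment lies beside the promoter of Cldn12 itself was not tested.

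The other 5 were each in 6 or 7 libraries, usually as pairs of libraries of 1 set. Plxnb1, a semaphorin receptor of the plexin family, had a fragment at chr9:108985155-108986540 with 271 and 166 in Basal 1 and 2, 173 in Early 2, 47 and 26 in Late 3 and 4, and 306 and 319 in Reactivated 3 and 4. It was the only 1 of the 5 scored in all 4 groups. Slc6a11, the GABA transporter GAT-3, had one 59.6 Mb from its centre at chr6:54544877-54548308 with 99 and 46 in Basal 1 and 2, 13 and 6 in Early 3 and 4, and 707 and 768 in Reactivated 3 and 4. Only 3 of its 11 listings lay far, so most lie within 1 Mb of its centre, and its nearest other promoter, Znrf2, has its own centre 230 kb away.

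Avl9, a gene of the late secretory pathway, had a fragment at chr6:56679371-56684357 with 424 and 262 in Basal 1 and 2, 63 and 62 in Late 3 and 4, and 35 and 44 in Reactivated 3 and 4. Mrpl50, a mitochondrial ribosomal protein, had one at chr4:49524438-49533692 with 180 and 104 in Basal 1 and 2, 178 and 88 in Early 3 and 4, 914 in Late 1, and 1350 and 944 in Late 3 and 4. Adamtsl2, a secreted matrix protein, had one at chr2:27078872-27091126 with 60, 45 and 12 in Basal, 25, 40, 493 and 356 in Late and none in Early or Reactivated. Of the 5, Plxnb1, Avl9 and Adamtsl2 had all of their listings far and Mrpl50 had 6 of 7. Slc6a11 is thus the only promoter of the 6 with most of its listings near its centre.

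The other most recurrent far-lying listings were all on fragments listed with further promoters. Pvrl3, the adhesion protein nectin-3, shares the fragment chr16:49856581-49856855 with Cd47, a surface ligand of the receptor SIRP-alpha, whose centre is 8.77 kb away, while that of Pvrl3 is 3.29 Mb away. The scores were 3816, 2158 and 37 in Basal, 2822, 5206, 7073 and 3687 in Early, 7037 and 4574 in Late 3 and 4, and 9867 and 12167 in Reactivated 3 and 4. Late 1 and 2 and Reactivated 1 and 2 had none. Every Early library scored this fragment, and the highest values were in the 2 largest libraries.

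Stmn4, a microtubule regulator of the stathmin family, shares chr14:68731199-68737403 with Nefl and Nefm, the light and medium neurofilament chains, 1.76 Mb from the Stmn4 centre and 4.23 kb from that of Nefl. Its scores were 848, 492 and 39 in Basal, 502, 0, 122 and 63 in Early, 1017 and 764 in Late 3 and 4, and 2562 and 2615 in Reactivated 3 and 4, with none in the other libraries. Snrpa1, a protein of the U2 splicing particle, shares chr7:134082013-134085032 with Kctd13 and Maz, 60.9 Mb from its centre, with 270, 301 and 29 in Basal, 103, 0, 219 and 106 in Early, 513 and 424 in Late 3 and 4, and 2219 and 2626 in Reactivated 3 and 4. Both were highest in Reactivated 3 and 4, the 2 largest libraries, and missing from Reactivated 1 and 2.

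Zmym5, a zinc finger protein, shares chr14:60085225-60089286 with Setdb2, a SET domain protein, and stood out by its Late values. Its scores were 11, 15 and 20 in Basal, 20, 0, 16 and 8 in Early, 1607 and 1189 in Late 3 and 4 and 243 and 188 in Reactivated 3 and 4, with none in Late 1 and 2 or Reactivated 1 and 2. Late was thus split between its library sets. Junb, the AP-1 transcription factor induced by neuronal activity whose promoter is shown above, shares chr8:107821241-107824615 with Elmo3, 20.3 Mb from its centre. The fragment spans the centre of Elmo3. Its scores were 116 in Basal 3, 79, 89, 691 and 385 in Early 1 to 4, 208 and 141 in Late 3 and 4, and 414 and 377 in Reactivated 3 and 4, with none in the rest. All Early libraries scored it and 1 of 3 Basal libraries did.

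The others of the first 10 were alike in being shared. Adat1, a tRNA deaminase, shares its fragment with Nup93, a nuclear pore protein, and Isyna1, the inositol phosphate synthase, shares one with Tmem59l. All 6 listings of Isyna1 lay far, so none of its listed fragments sits near its centre. Capn7, a calpain, shares one with Ap1g2 and with Jph4, a junctophilin of neurons. Syt12, a synaptotagmin, shares one with Eef1g, an elongation factor. They were scored in 9 or 10 libraries, with scores from 6 (Syt12, Late 1) to 3155 (Isyna1, Reactivated 4). None of the 4 had a score in Reactivated 1.

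**Figure D3:**
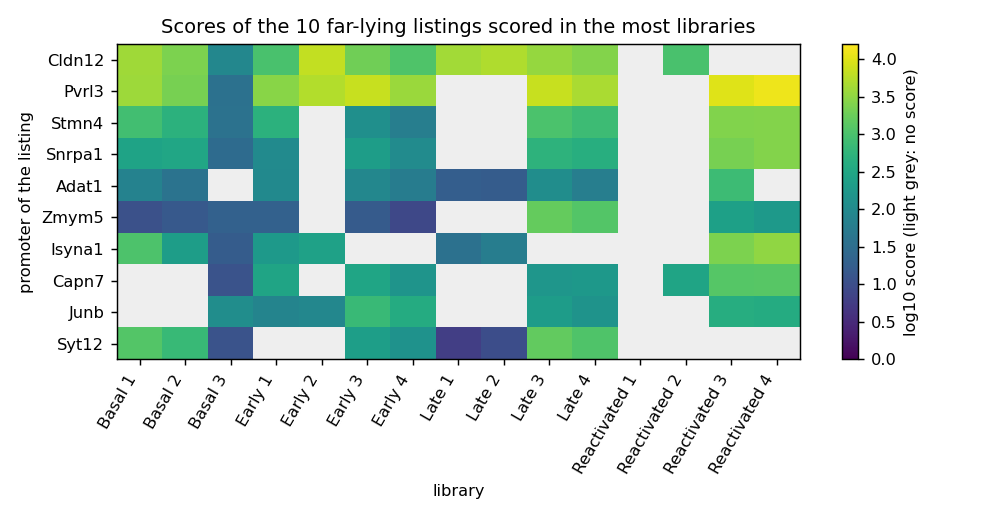
Scores, on a log10 colour scale, of the 10 far-lying listings scored in the most libraries, 1 row per promoter and 1 column per library, with light grey for no score. Cldn12 is scored in 12 libraries and Pvrl3 in 11, and Reactivated 1 has no score for any of the 10.

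The share of a library's listings that lay far differed more within the groups than between them. In Basal it was 11.1%, 9.65% and 24.9%, and in Early 26.3%, 26.8%, 8.91% and 26.1%. In Late it was 31.3%, 33.0%, 7.98% and 5.66%, and in Reactivated 40.0%, 52.1%, 7.88% and 9.09%. Within Late and Reactivated the 2 library sets stood apart, and libraries of each group overlapped those of every other. The Reactivated 1 and 2 values come from 12 of 30 and 183 of 351 listings, with 95% Wilson intervals of 24.6% to 57.7% and 46.9% to 57.3%, which cover counting error only. Without Crebzf they were 18.2% and 22.2%. The libraries with large sums of scores had small shares, as in Reactivated 3 and 4, whose sums were the highest, and the part of depth in this was not tested.

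**Figure D4:**
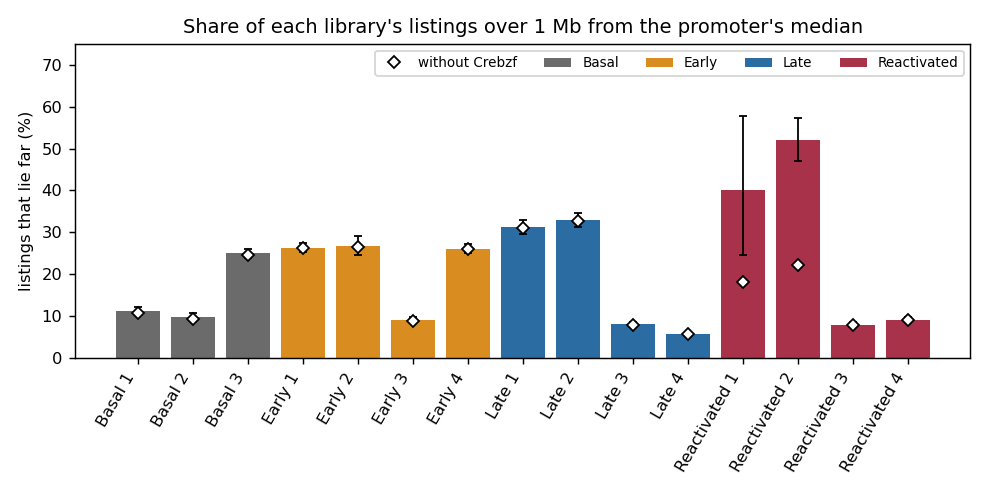
Percent of each library's listings of well-covered promoters that lie over 1 Mb from the promoter's median (bars, coloured by group, with 95% Wilson intervals), and the same without Crebzf (diamonds). The bars run from 5.66% in Late 4 to 52.1% in Reactivated 2, where the diamond is at 22.2%.

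Group means of this share, with the SD over libraries, were 15.2% ± 8.43 for the 3 Basal libraries. For the 4 libraries each of Early, Late and Reactivated they were 22.0% ± 8.73, 19.5% ± 14.7 and 27.3% ± 22.3. None of the 6 comparisons passed an exact two-sided permutation test over libraries. Early exceeded Basal by 6.79 points (exact permutation p = 0.314), Late minus Early was -2.53 (exact p = 0.943) and Reactivated minus Late was 7.81 (exact p = 0.543). Against Basal the differences were 4.25 for Late (exact p = 0.686) and 12.1 for Reactivated (exact p = 0.457), and Reactivated minus Early was 5.28 (exact p = 0.714). The exact permutation p adjusted over the 6 was 0.857 to 0.943, and the smallest p the design allows for a pair of groups is 0.0286, with 4 libraries against 4. Without Crebzf alone, the Reactivated differences changed sign, to -4.99 against Late, -0.54 against Basal and -7.53 against Early.

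Scores of far-lying and near listings did not differ beyond the spread between libraries. The median score was higher far than near in 7 libraries and lower in 8. It was 612 against 307 in Reactivated 3, 667 against 309 in Reactivated 4, 326 against 155 in Late 3 and 192.5 against 97 in Late 4. It was 4 against 86.5 in Reactivated 2, 96 against 172 in Early 2 and 17 against 21 in Late 1. The higher values were thus in both large library sets of Late and Reactivated and in Basal 1 and 2 and Early 3. The mean within-library difference in log2 median score was -0.35 ± 1.64 (SD, n = 15), with an exact sign-flip permutation p of 0.458. It was 0.10 without Crebzf and 0.22 without Reactivated 1 and 2, so its sign rests on those values.

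**Figure D5:**
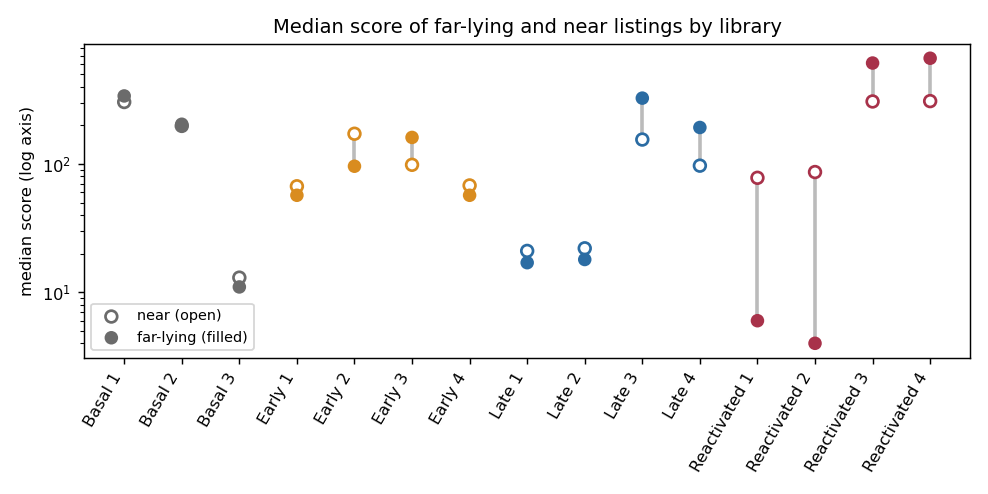
Median score of the far-lying (filled) and near (open) listings scored in each of the 15 libraries, on a log axis, coloured by group. The far median is higher in 7 libraries, among them Reactivated 3 (612 against 307), and lower in 8, among them Reactivated 2 (4 against 86.5).

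Groups were compared listing by listing with limma on asinh(score), a scale that is close to a natural logarithm for large scores and 0 for no score, with Benjamini-Hochberg adjustment over all 36353 listings. No listing of the table passed an adjusted p of 0.05 in any of the 6 comparisons (0 of 36353, 0%), and so 0 far-lying ones did. The smallest adjusted limma p of a far-lying listing was 0.141 in Reactivated against Late and between 0.161 and 0.276 in the others. At an unadjusted p under 0.05 there were 452 far-lying listings in Early against Basal (6.36%, against 10.6% of all listings), 504 in Late against Early (7.09% against 15.1%) and 791 in Reactivated against Late (11.1% against 26.2%). Late against Basal gave 406 (5.71% against 12.9%). Reactivated gave 722 against Basal (10.2% against 20.3%) and 776 against Early (10.9% against 21.3%). In this fit the far-lying shares were below those of the whole table, and most far-lying listings were scored in 1 library. This order depended on the setting. Without Basal 1, Early against Basal gave 883 of 7045 far-lying and 3189 of 36059 of all listings, a higher share far. Without Basal 1 or Basal 2 the same held in each comparison with Basal and in no other. Among listings scored in at least 2 libraries, shares were about equal in Late against Early (697 of 2517 and 6744 of 24469). They stayed lower far in comparisons with Reactivated. When the mean of a library set replaced its libraries, the far-lying counts of the main fit fell to 7 in Early against Basal, where 0.165% of all listings passed. They fell to 1 in Late against Basal and 1 in Reactivated against Basal (against 0.0303% and 0.0193% of all listings). They were 0 in Late against Early, Reactivated against Late and Reactivated against Early (against 0.0743%, 0.011% and 0.00825% of all listings).

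Full separation of the groups was rare among far-lying listings. Basal libraries all exceeded Early ones for 25 (0.352%, against 0.979% of all listings), Late ones for 29 (0.408% against 0.996%) and Reactivated ones for 38 (0.534% against 1.04%). Early exceeded Basal for 0 (against 0.157% of all). Late exceeded Basal for 4 (0.0563% against 0.314%) and Early for 4 (0.0563% against 0.286%). Early exceeded Late for 2 (0.0281% against 0.0605%), and Late and Early exceeded Reactivated for 7 and 3 (0.0984% and 0.0422%, against 0.349% and 0.121%). Reactivated exceeded no other group for any far-lying listing (against 0.00275% of all in each case). Reactivated 1 scored only 12 far-lying listings, and a listing without a score there could not count. This result was thus almost fixed in advance and cannot be set beside the other counts.

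The largest difference of Basal over Early among the named listings was that of Sp1, a zinc finger transcription factor that binds GC-rich promoters. Its fragment chr15:37947808-37948359, 63.6 Mb from the Sp1 centre and listed with no other promoter, had scores of 564, 356 and 88 in Basal and none in the other 12 libraries. The difference in mean asinh score was -6.26 ± 1.84 (SE) in Early against Basal (limma adjusted p = 0.185), and the same size in Late and Reactivated, which share the Basal libraries. Of the 16 Sp1 listings, 8 lay far. Another, chr15:102978087-102981951 at 1.47 Mb, had 29 in Basal 3 and 5743 and 6670 in Reactivated 3 and 4, and none in Early or Late. Usp33, a deubiquitinase, shares chr3:94448900-94452498 with Cgn and Zfp687, with 1123, 696 and 8 in Basal and none elsewhere (limma adjusted p = 0.185 in Early against Basal).

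Ly6e, a surface protein of the Ly6 family, had chr15:98567256-98578464 with 1178, 743 and 22 in Basal, 204 and 310 in Early 1 and 4 and none in Late or Reactivated. Gfra4, a receptor of the GDNF family, shares chr2:144202401-144204268 with Csrp2bp, with 3485, 1842 and 10 in Basal, 158 in Early 4 and 387 and 403 in Reactivated 3 and 4. In both, Basal 3 was far below Basal 1 and 2. Late against Basal gave differences of -6.28 ± 2.27 for Ly6e and -6.69 ± 2.49 for Gfra4 (SE; limma adjusted p = 0.196 and 0.230).

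The 3 named listings with the largest differences of Early over Basal were each scored in Early 1, 3 and 4 and not in Early 2. Rnaseh1, a nuclease of RNA-DNA hybrids, shares chr12:32321175-32326406 with Bcap29, Cbll1 and Dld, with 129, 609 and 372 in Early 1, 3 and 4 and none elsewhere. The difference was 4.82 ± 1.86 (SE; limma adjusted p = 0.280). Frs2 shares chr10:20973684-20974823 with Myb, a proto-oncogene transcription factor, 95.3 Mb from its centre, with 417, 243 and 132 in the same 3 libraries and none elsewhere (4.62 ± 1.83, SE, limma adjusted p = 0.319). Pamr1 shares chr2:131320182-131322277 with Adam33 and Smox, with 787, 838 and 445 there, but also 1026 and 684 in Late 3 and 4 and 2108 and 2244 in Reactivated 3 and 4. Rbfox2, a splicing regulator, had chr15:35835177-35837226 with 132 and 98 in Basal 1 and 2, 91, 758 and 382 in Early 1, 3 and 4 and none in Late or Reactivated (Late against Early -4.79 ± 2.07, SE, limma adjusted p = 0.276).

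The largest differences of Late over Early or Basal among the named listings were those of fragments of Ptprk, Adamtsl2 (values above), Ddit4 and Vstm2l. Ddit4, an inhibitor of mTORC1 signalling induced by stress and glucocorticoids, had chr10:80059165-80066305 with 16, 19, 241 and 160 in the 4 Late libraries and none elsewhere (4.76 ± 1.71, SE, limma adjusted p = 0.276 against Early). It is among the 4 far-lying listings with Late above Early without overlap and among the 4 with Late above Basal, on a fragment of a single promoter 20.7 Mb from the centre. Ptprk, a receptor tyrosine phosphatase, shares chr10:128280172-128291052 with Gdf11, with 15 in Basal 3, 23, 15, 1838 and 1260 in Late, and 49 and 40 in Reactivated 3 and 4. In the fragments of Ptprk and Ddit4, Late 3 and 4 were well above Late 1 and 2. Vstm2l had chr2:24341226-24346366, 133 Mb from its centre, with 30, 712 and 527 in Late 1, 3 and 4 only.

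The largest differences of Reactivated over Late among the named listings came from Reactivated 3 and 4 alone. Rab33b, a Rab GTPase of the Golgi, had chr3:51276610-51279408 with 6832 and 7374 there and none in the other 13 libraries, and Mios, a subunit of the GATOR2 complex in amino acid sensing, had chr6:4497872-4501394 with 6652 and 7257 there only. Trove2 had chr1:9077555-9079180, 137 Mb from its centre, with 48 and 22 in Early 3 and 4 and 6055 and 7306 in Reactivated 3 and 4. The differences against Late were 4.78 ± 1.72, 4.77 ± 1.71 and 4.75 ± 1.99 (SE; limma adjusted p = 0.141 for each). Reactivated 1 and 2 had no score for any of the 3, so the groups overlapped.

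These counts depended on single libraries. Without Reactivated 1, 411 far-lying listings passed in Reactivated against Late (5.78% of those tested, against 13.5% of all listings), 387 against Basal (5.44% against 10.9%) and 385 against Early (5.41% against 12.7%). Without Reactivated 2 they were 410, 409 and 385, against 13.5%, 11.5% and 12.9% of all listings. Without both, which leaves the 2 libraries of a single set, they were 644, 637 and 643 (9.21%, 9.11% and 9.19%, against 25.3%, 25.1% and 25.3%), of which 639, 611 and 636 were higher in Reactivated. In that fit 15 passed in Early against Basal (0.215%, against 0.539% of all listings). In Late against Early 3 passed (0.0429% against 0.177%), and in Late against Basal 16 did (0.229% against 0.653%). Rab33b, Mios and Trove2 were among the listings that passed there in comparisons with Reactivated. Without Basal 3, whose scores were the lowest in its group, 154, 166 and 190 far-lying listings passed in Early, Late and Reactivated against Basal (2.42%, 2.60% and 2.98%, against 4.08%, 4.34% and 4.58%), all higher in Basal. With no variance trend, Early, Late and Reactivated against Basal gave 17, 20 and 18 (against 0.391%, 0.553% and 0.402% of all listings). Late against Early and Reactivated against Late gave 3 each (0.0422%, against 0.157% and 0.162% of all listings). Reactivated against Early gave 0 (against 0.0138% of all listings). The far-lying share was below that of all listings in each of these fits.

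Far-lying listings were spread over promoters of all the gene lists, with counts given here beside those of all promoters (81.6% of well-covered promoters with a far-lying listing and 22.0% of listings far). Of immediate early and activity-regulated genes, 16 of 19 well-covered promoters had one, and 21.1% of their 228 listings lay far. Junb had 6 of 13, Jund, another AP-1 subunit, 5 of 11, and Nr4a2, an orphan nuclear receptor, 5 of 15. Arc, whose promoter drives the Cre recombinase of the line, had 4 listings in all and so was not well covered. Cytosolic ribosomal protein genes had the highest share of listings far, 28.8% of 139, with 13 of 15 promoters, among them Rps23 with 9 of 25 and Rplp0 with 5 of 13.

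Voltage-gated ion channel genes had the lowest share, 13.4% of 238 listings, with 10 of 15 promoters. Cacna2d1, an auxiliary calcium channel subunit, had 6 of 53, Dpp10, a potassium channel partner, 6 of 27 and Cacnb4 7 of 17. Developmental transcription factors had 15.0% of 459 listings far, with 26 of 31 promoters. Tbr1, a T-box factor of excitatory neurons, had 9 of 25, and Nr3c2, the mineralocorticoid receptor, 5 of 47. Nr3c2 and Cacna2d1, with many listings, had most of them near their centre, as did 2675 of all 2886 well-covered promoters.

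The synaptic lists lay between. Glutamate receptor genes had 18.0% of 261 listings far, with 17 of 19 promoters, among them Neto2, a kainate receptor partner, with 6 of 14, and Cnih3, an AMPA receptor auxiliary subunit, with 6 of 21. GABA and interneuron genes had 22.8% of 219, with 16 of 17 promoters. Npy, the neuropeptide Y gene, had 6 of 14. Reln, the extracellular protein reelin, had 5 of 36, all over 41.6 Mb away. Synaptic vesicle genes had 19.6% of 112 listings far and 9 of 13 promoters, and cell adhesion and axon guidance genes 20.3% of 350 and 23 of 31, among them Cntnap2, a neurexin-family protein, with 9 of 14 and Negr1 with 7 of 21.

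The remaining lists were near the share of all promoters. Chromatin modifiers had 20.4% of 167 listings far and 14 of 16 promoters, with 5 of 19 for Tet2, a 5-methylcytosine dioxygenase, and 4 of 8 for the histone deacetylase gene Hdac5. Proteasome and ubiquitin ligase genes had 23.1% of 143 and 11 of 13 promoters, with 7 of 16 for Psmd7, a proteasome subunit. Glial and vascular marker genes had 20.7% of 111 and 10 of 13 promoters, with 4 of 8 for the oligodendrocyte factor gene Olig1. No list was tested against the others.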

How the data were processed

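The deposited table gives the authors' interaction score per promoter and fragment in 15 libraries, per the file headers, on build mm9 per the submitters' processing notes. The score's program, the aligner, filters, normalization and read depth, not given in the sources used here, are unknown, and precision is limited by the number of libraries. Far-lying listings were found from fragment midpoints. The group fits used R 4.3.3 with limma 3.58.1 and statmod 1.5.0 on asinh(score) of all 15 libraries at once, unfiltered. They had robust empirical Bayes moderation and a variance trend. They were also run on simulated data, with changed listings scored alike in every library of a group and in none of the other. The scores here are sparse and uneven within groups, so that run does not show how the fits perform on them. Shares, scores and recurrence were tested by exact permutation over libraries with Python 3.11.15, pandas 2.3.3, numpy 2.4.6 and scipy 1.17.1, and plots were made with matplotlib 3.10.9. Library sets join libraries of a group in which the smaller shares 40% or more of its fragments with the other; that rule was made with the sharing known.

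The members, the 11 gene lists and the tests were chosen with earlier results of these data known. The genes named were those of far-lying listings in the most libraries (10), farthest (10), nearest to 1 Mb, with the 3 largest rises and falls per comparison (scored 5 or more in either group), promoters with the most far-lying listings or the largest share of them (10 each), 3 per gene list, and Arc. Some of them are not reported here. Predicted genes, clones, microRNAs and olfactory receptors were skipped. Alternatives covered the distance, coverage, score minimum, scale, normalization, library sets and left-out libraries.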

Additional observations from a re-analysis of the deposited data

Results flagged for a closer look

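The share of listings that lay far was 8.91% in Early 3, while the other 3 Early libraries were between 26.1% and 26.8%. The gap was 0.960 of the range of the group, above the 0.829 that marks an outlying sample among 4. Among the scores of the 10 most recurrent far-lying listings, the Cldn12 fragment had 1000 in Reactivated 2 and no score in the other 3 Reactivated libraries. The Adat1 fragment had 762 in Reactivated 3 and no score in the others of that group, Reactivated 4 included, although Reactivated 3 and 4 share most of their fragments. The Snrpa1, Adat1 and Capn7 fragments had a score of 0 (none listed) in Early 2 and scores in the other 3 Early libraries. Early 2 listed the fewest fragments of its group, 1558 of well-covered promoters against 4984 to 6402. Of 42 groups of values checked, 6 stood out. A listing scored in only 1 library of a group is always flagged, as for Cldn12 and Adat1 in Reactivated. The rate of about 5% expected by chance thus does not apply to these scores, and the count is not read as an excess.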

How the results depend on the processing

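The lower recurrence of far-lying listings kept its direction and its side of the threshold under all 27 alternatives, with -15.3 to -13.3 points when 1 library was left out, and no share or score comparison passed under any. Several signs changed. Late against Early in the share was 0.42 points at a distance over 500 kb, and Reactivated against Early was -1.33 with scores of 5 or more only. Without Crebzf the Reactivated differences against Late, Basal and Early were -4.99, -0.54 and -7.53 and the score difference 0.10. Without Reactivated 1 and 2 they were -11.0, -6.73 and -13.5 and 0.22. With promoters that had fewer listings far than near, added after seeing the data, they were -4.34, -1.60 and -8.46. Leaving out 1 library gave ranges of 4.00 to 11.6 (Early against Basal), -7.03 to 2.07 (Late against Early), -0.48 to 14.3 (Reactivated against Late), -0.24 to 9.10 (Late against Basal), 3.77 to 18.5 (Reactivated against Basal), -3.01 to 11.7 (Reactivated against Early) and -0.45 to -0.06 for scores. Late against Basal changed sign without Late 2 (-0.24), Late against Early without Late 3 (1.30) or Late 4 (2.07), and Reactivated against Late and Early without Reactivated 2 (-0.48 and -3.01).

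Far-lying listings passing limma, 0 in each comparison, stayed at 0 on the log2 scale, with a filter, quantile normalization or library sets. Against Basal, 17 passed in Early, 20 in Late and 18 in Reactivated without the variance trend, and 15, 16 and 637 without Reactivated 1 and 2. Late against Early gave 3 and 3 in these fits, Reactivated against Late 3 and 644, and Reactivated against Early 0 and 643. Leaving out 1 library gave 0 to 154, 0 to 166 and 0 to 409 against Basal in the same order, 0 for Late against Early, 0 to 411 for Reactivated against Late and 0 to 385 for Reactivated against Early, with the values without Basal 3 (154, 166 and 190), Reactivated 1 (411, 387 and 385) and Reactivated 2 (410, 409 and 385) the only ones above 0. With the replicate number as a replicate block the share differences, in the order of the ranges above, were 5.43, -2.53, 7.81, 8.86, 18.1 and 5.28 points and 0 far-lying listings passed, and same-numbered libraries correlated between -0.05 and 0.07 in their deviations from the group means, so the numbers do not pair the libraries. The cause of these changes was not tested.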

Other observations

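Some pairs of promoters were listed far in both directions, each with a fragment within 100 kb of the centre of the other. Only the 2675 well-covered promoters with fewer listings far than near were searched. In 1742 ordered pairs of them, a far-lying fragment of a promoter lay within 100 kb of another promoter's centre. Of these, 29 pairs were found both ways, and 14 of the 29 had a library in common. Golga2, a golgin of the cis-Golgi, and Ncs1, the neuronal calcium sensor, had 3 libraries in common. The fragment listed with Golga2 (chr2:31098892-31102491) had scores of 71, 39 and 16 in Basal and 1205 in Late 3, and the one listed with Ncs1 (chr2:32143060-32145969) had 122 and 79 in Basal 1 and 2 and 1205 in Late 3. Both fragments were listed with a single promoter, and their centres are 1.02 Mb apart. The same score of 1205 stands in both listings of Late 3. The pair Arsb, a lysosomal sulfatase, and Gm9776 had Reactivated 3 and 4 in common, with 4860 and 5379 for the fragment of Arsb and 45 and 28 for that of Gm9776. No test was made of these pairs, which were chosen after their values were seen.

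Far-lying listings were shared between libraries less than near ones, in percent of the smaller library's listings. For 15 pairs of libraries of the same group but of different sets the median was 4.23% far and 15.9% near, with far below near in 15 of 15. For 84 pairs of libraries from different groups it was 10.8% far and 21.1% near, with far below near in 77 of 84. For the 6 pairs within a set it was 87.7% and 93.1%. The medians were higher for pairs from different groups than for same-group pairs of different sets, far and near alike. Same-group pairs with high sharing had, however, been placed within a set because of that sharing. Pairs from different groups were not sorted in this way. The order of these medians is thus partly fixed by the rule for sets, and it does not show whether sharing differs within and between groups. The same-group pairs come from few sets and differ between groups. Reactivated 1 shared 0 far-lying listings with Reactivated 3 and with Reactivated 4. Basal 1 and 3 shared 18.5% of near listings and Late 1 and 3 shared 12.8%. The libraries of a pair recur in other pairs, so these counts carry no test.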
